A study of Homo sapiens with 6 samples.

Results

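The human mitochondrial genome carries 37 genes, and all 37 were found by symbol among the 57773 genes of the count table: 13 mRNA genes, 2 rRNA genes and 22 tRNA genes. They were described by RNA class, by strand and, for the mRNAs, by the respiratory complex that each protein joins. RNA came from 6 libraries of HEK293 cells, an established line derived from embryonic kidney, in 3 groups of 2 replicates. Cells were transiently transfected with plasmids expressing Cas9 and 4 guides against ZNF146 (sgZNF146), with 4 guides against ZNF507 (sgZNF507), or with the empty vector without a guide (EV), selected for 36 hours in puromycin and harvested after 2 weeks in all. No cloning step is described, so the targeted cells were mixed populations, all groups had received Cas9 plasmid and puromycin, and the comparison asked what disruption of either zinc finger protein did to the transcriptome. Both the disruption and the sequencing were done in duplicate per the study's methods. The p-values rest on the spread between duplicates over all groups in a fit, combined with a spread drawn from all genes. They therefore do not measure the duplicates of the compared groups alone.

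Mitochondrial DNA is a small circle that is transcribed on both strands into long precursor RNAs by the polymerase POLRMT. Most rRNA and mRNA genes are set off by tRNA genes, and cutting out the tRNAs releases the RNAs between them. The rRNAs build the mitochondrial ribosome, and the mRNAs encode core subunits of respiratory complexes I, III and IV and of the ATP synthase, complex V, whose other subunits come from nuclear genes.

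Values are counts of reads per gene, or counts per 1000000 counts of the TMM-adjusted library size (CPM), a scaling that sets all libraries to a common depth. Library totals ranged from 22724439 to 28524025 counts, and the 37 genes together took 2.33 to 3.11% of a library. A filter on low counts left 22010 genes for testing, 33 of them mitochondrial: all 13 mRNAs, both rRNAs and 18 of the 22 tRNA genes. Of the markers of the line, VIM ranged from 1011 to 1146 CPM, KRT8, KRT18, NEFM and LIN28B were present, NEFL was not analysed here, and of the markers of other cell types PTPRC and ALB had at most 6 counts, HBB had 0, COL1A1 ranged from 58.8 to 72.9 CPM and PECAM1 was not analysed here. ZNF507 had 1792 and 2087 counts in EV against 1088 and 1411 in sgZNF507, lower by a log2 fold change of -0.62 (SE 0.07, edgeR adjusted p = 0.00195), while ZNF146 differed by -0.13 between sgZNF146 and EV (SE 0.08, edgeR adjusted p = 1.00). Such mRNA counts do not measure the proteins. By western blot the paper found either protein essentially absent from the cells targeted for it. It also found frequent indels at the guide sites of both genes.

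The rRNA genes MT-RNR1 and MT-RNR2 were far lower in both sgZNF146 libraries and in 1 of the sgZNF507 libraries than in EV, and the tRNA gene between them, MT-TV, was lower in all 4 libraries with guides, while MT-ND1 and MT-ND2, which follow them on the same strand, stayed within a narrow range. MT-RNR1 encodes the rRNA of the small subunit of the mitochondrial ribosome and MT-RNR2 that of the large subunit. On the GRCh37 mitochondrial chromosome, 16569 bases long, MT-TF (chrM:577-647), MT-RNR1 (chrM:648-1601), MT-TV (chrM:1602-1670), MT-RNR2 (chrM:1671-3229) and MT-TL1 (chrM:3230-3304) lie on the plus strand with no base between them. The labels name both hg19 and GRCh37, whose mitochondrial sequences can differ by distribution, and which one the reads were mapped to is not given in the sources used here, so positions and sequences are those of GRCh37. The junctions are shown because each rRNA end is also the start or end of a tRNA gene, with 15 bases on either side and the tRNA side in capitals, at chrM:633-662, chrM:1587-1616, chrM:1656-1685 and chrM:3215-3244.
MT-TF/MT-RNR1: ATCACCCCATAAACAaataggtttggtcct
MT-RNR1/MT-TV: tgcacttggacgaacCAGAGTGTAGCTTAA
MT-TV/MT-RNR2: ACTTGACCGCTCTGAgctaaacctagcccc
MT-RNR2/MT-TL1: ccaagaacagggtttGTTAAGATGGCAGAG

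MT-RNR1 had 38578 and 46240 counts in EV, 3379 and 3985 in sgZNF146, and 21744 and 1475 in sgZNF507. In CPM these were 1548 and 1671, 133 and 158, and 943 and 50.9. Both EV libraries were the highest of the 6, and the sgZNF507 replicates stood on opposite sides of both sgZNF146 libraries. MT-RNR2 had 28730 and 33331 counts in EV, 3252 and 3971 in sgZNF146, and 16337 and 1458 in sgZNF507, or 1153 and 1204, 128 and 158, and 708 and 50.3 CPM. It showed the same order of libraries as MT-RNR1. The ratio of the higher to the lower replicate was 1.08 and 1.04 in EV for MT-RNR1 and MT-RNR2, 1.19 and 1.23 in sgZNF146, and 18.5 and 14.1 in sgZNF507. In no other group did an rRNA differ between replicates by as much as it did in sgZNF507.

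Between sgZNF146 and EV, MT-RNR1 was lower by a log2 fold change of -3.47 (SE 0.81) and MT-RNR2 by -3.04 (SE 0.73), the EV means being 11.1-fold and 8.25-fold the sgZNF146 means. All 6 libraries shared 1 estimate of the spread, and the quasi-likelihood test of edgeR, its p-values adjusted by the Benjamini-Hochberg method over the 22010 genes, called neither of them, with adjusted p = 1.00 for both, although both sgZNF146 libraries lay below both EV libraries. Of the 33 mitochondrial genes tested, 0 passed an adjusted p of 0.05 in this comparison, as did 0% of all genes, while MT-RNR1, MT-RNR2 and MT-TV, 3 of 33, had an unadjusted p under 0.05 against 2.43% of all genes. DESeq2 on 6 libraries also called 0 mitochondrial genes and 0% of all genes. Without the filter on low counts edgeR called these 3 and 0.0516% of all genes. That unfiltered fit gave MT-RNR1 a standard error of 0.06, against 0.81 in the main fit, and did not reflect the gap between the sgZNF507 replicates. Fitted to the 4 EV and sgZNF146 libraries alone, both edgeR and DESeq2 called 3, again MT-RNR1, MT-RNR2 and MT-TV and all lower. These were the only genes called in either fit, 0.014% (edgeR) and 0.00844% (DESeq2) of all genes. In that edgeR fit the standard error of MT-RNR1 was 0.09. The edgeR adjusted p was 3.20e-10 for MT-RNR1, 1.17e-09 for MT-RNR2 and 0.0157 for MT-TV. The fits without an sgZNF507 library, given next, hold a lone sgZNF507 library, which adds no spread between duplicates. Like the fit to 4 libraries, they drop the gap between the sgZNF507 replicates. They therefore repeat that test and are not further checks. Leaving out either sgZNF507 library from the common edgeR fit gave the same 3 calls (backgrounds of 0.0131% and 0.0132%), with edgeR adjusted p of 8.39e-12 without replicate 1 and 5.72e-12 without replicate 2 for MT-RNR1.

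Between sgZNF507 and EV, MT-RNR1 differed by a log2 fold change of -1.70 (SE 0.75, edgeR adjusted p = 1.00) and MT-RNR2 by -1.64 (SE 0.69, edgeR adjusted p = 1.00). Which sgZNF507 library was used set these values. Without sgZNF507 replicate 1 the fold change of MT-RNR1 was -4.99, and without sgZNF507 replicate 2 it was -0.76. Such a fit assumes that the lone library varies like the other groups, so no p-value is given for it. Against sgZNF146, sgZNF507 was higher in MT-RNR1 by 1.77 (SE 0.76, edgeR adjusted p = 1.00). This value turned to -1.52 without sgZNF507 replicate 1 and became 2.71 without sgZNF507 replicate 2.

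**Figure D1:**
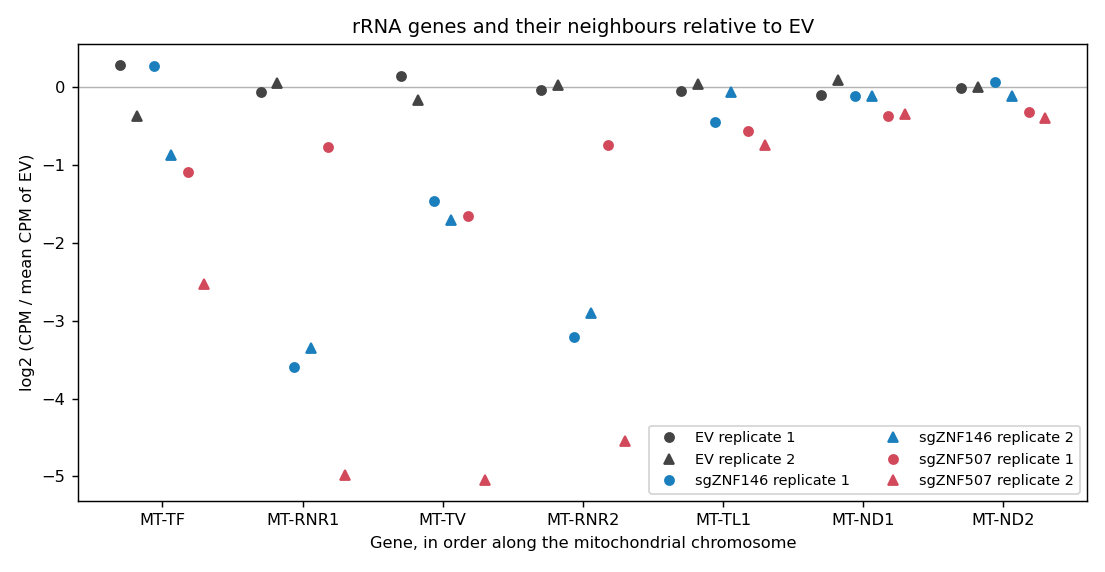
The log2 ratio of CPM in each library to the mean CPM of EV for 7 plus-strand genes from MT-TF to MT-ND2, in order along the chromosome and without MT-TI and MT-TM, which lie between MT-ND1 and MT-ND2. Circles are replicate 1 and triangles replicate 2, black for EV, blue for sgZNF146 and red for sgZNF507, and the lowest points are sgZNF507 replicate 2 at MT-TV, MT-RNR1 and MT-RNR2. MT-ND1 and MT-ND2 lie near 0 in EV and sgZNF146 and lower in sgZNF507, with fitted values of -0.35 and -0.36 against EV.

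The tRNA genes around the rRNAs were read by the same counts, and their sequences are given because they are short enough to be covered by few read positions. MT-TF encodes the tRNA for phenylalanine, MT-TV that for valine, and MT-TL1 a tRNA for leucine. The sequences are those of the plus strand of GRCh37, 71, 69 and 75 bases long, with the anticodon in capitals.
MT-TF: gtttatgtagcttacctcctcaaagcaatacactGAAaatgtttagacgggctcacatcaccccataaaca
MT-TV: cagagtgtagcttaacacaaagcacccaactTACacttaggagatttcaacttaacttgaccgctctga
MT-TL1: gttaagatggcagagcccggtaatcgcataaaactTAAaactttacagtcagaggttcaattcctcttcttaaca

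MT-TV, named after its values were seen, had 189 and 169 counts in EV, 63 and 53 in sgZNF146, and 50 and 6 in sgZNF507. All 4 libraries with guides lay below both EV libraries, and sgZNF507 replicate 2, with 6 counts, was the lowest. The fitted log2 fold change was -2.63 for sgZNF507 against EV (SE 0.48, edgeR adjusted p = 0.0603), the smallest adjusted p of the 33 genes in that comparison, and -1.57 for sgZNF146 against EV (SE 0.42, edgeR adjusted p = 1.00). Without sgZNF507 replicate 1 the first of these was -5.02, which rests on the 6 counts of the lone replicate 2. Without sgZNF507 replicate 2 it was -1.64. A lone library shows no spread of its group, so no p-value is given for these fits.

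MT-TF, which precedes MT-RNR1, had 152 and 107 counts in EV, 153 and 69 in sgZNF146, and 54 and 25 in sgZNF507. Both sgZNF507 libraries were the lowest of the 6, and the EV and sgZNF146 libraries overlapped. The log2 fold change of sgZNF507 against EV was -1.68 (SE 0.42, edgeR adjusted p = 0.517). MT-TL1, which follows MT-RNR2, had 276 and 329 counts in EV, 215 and 278 in sgZNF146, and 179 and 199 in sgZNF507. In CPM it was 11.1 and 11.9, 8.46 and 11.04, and 7.76 and 6.86, so it spanned 1.73-fold from the highest to the lowest library where MT-RNR2 beside it spanned 24.0-fold. Its log2 fold change was -0.66 for sgZNF507 against EV (SE 0.15, edgeR adjusted p = 0.272) and -0.24 for sgZNF146 against EV (SE 0.15, edgeR adjusted p = 1.00).

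Ratios within a library do not depend on how libraries are scaled. There were 10.4 and 10.1 rRNA counts per 100 mitochondrial mRNA counts in EV, 0.967 and 1.25 in sgZNF146, and 7.55 and 0.444 in sgZNF507. The ratio of MT-RNR1 to MT-RNR2 counts was 1.34 and 1.39 in EV and 1.33 in sgZNF507 replicate 1, against 1.04 and 1.00 in sgZNF146 and 1.01 in sgZNF507 replicate 2. The 3 libraries with few rRNA counts were thus also those in which the rRNAs had nearly equal counts. MT-TV counts per 1000 rRNA counts were 2.81 and 2.12 in EV, 9.50 and 6.66 in sgZNF146, and 1.31 and 2.05 in sgZNF507. The valine tRNA gene was thus lower than in EV by less than the rRNAs were in sgZNF146, while in sgZNF507 the ratio lay below both EV libraries, for replicate 2 by little.

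The libraries were prepared with ribosome depletion, and reads mapping to ribosomal RNA were removed before the genome was mapped. Whether either step covered the mitochondrial rRNAs is not given in the sources used here, and their part in these values was not tested. Cytosolic rRNA genes and pseudogenes left in the table summed to 10.5 and 11.02 CPM in EV, 10.2 and 9.05 in sgZNF146, and 10.9 and 9.38 in sgZNF507. The 3 libraries with few mitochondrial rRNA counts were also the 3 lowest of this narrow range, and the part of this in the mitochondrial rRNA result was not tested. Small nuclear and nucleolar RNA genes, another group of short RNAs, summed to 894 and 719 CPM in EV, 857 and 866 in sgZNF146, and 675 and 674 in sgZNF507. Their sum was lowest in both sgZNF507 libraries, which did not differ in it while their rRNA differed.

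The 13 mRNAs were each lower in both sgZNF507 libraries than in both EV libraries, by a median log2 fold change of -0.31 and a range of -0.62 to -0.19, while for 12 of the 13 the sgZNF146 and EV libraries overlapped. Summed over the 13 genes, the mRNAs came to 26074 and 28328 CPM in EV, 26981 and 25196 in sgZNF146, and 21867 and 22787 in sgZNF507. The EV mean was 27201 ± 1594 (SD, n = 2), the sgZNF146 mean 26089 ± 1262 (SD, n = 2) and the sgZNF507 mean 22327 ± 651 (SD, n = 2), so the sgZNF507 sum was 0.821 of that in EV and 0.856 of that in sgZNF146. An exact permutation test of 2 libraries against 2 cannot go below p = 0.333, so sums and ratios are given as descriptions. In bulk RNA, fewer mitochondria, fewer genome copies and less RNA from each cannot be told apart.

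In the test of single genes, 0 of the 33 mitochondrial genes passed an adjusted p of 0.05 in edgeR between sgZNF507 and EV, where 0.182% of all genes passed. At an unadjusted p under 0.05, 21 of 33 were included, among them all 13 mRNAs, against 3.39% of all genes. In 15.3% of all genes both sgZNF507 libraries lay below both EV libraries, as they did in 13 of 13 mRNAs, and the median log2 fold change of all genes was -0.00. Mitochondrial genes share precursor RNAs and the same libraries, so a common shift would enter many of these counts at once. Counts of mitochondrial genes, here and in the other comparisons, are therefore not counts of separate observations. The smallest adjusted p of an mRNA was 0.0796, that of MT-ND4L. DESeq2 on 6 libraries called 3 mitochondrial genes, MT-ND1, MT-ND2 and MT-ND4L, where 0.211% of genes passed. DESeq2 on the 4 libraries compared called 7 (0.244% of all genes) and edgeR on those 4 called 0 (0.13%). Without the filter edgeR called 17 (0.274%), and the genes called in these fits were all lower in sgZNF507. The unfiltered fit gave MT-RNR1 a standard error of 0.06, where the main fit gave 0.75. So small an error does not reflect the 18.5-fold gap between its sgZNF507 replicates, and those 17 calls are not taken as a result. With the replicate number as a block, edgeR called 16 (0.55% of all genes) and DESeq2 called 9 (0.335%), again all lower. No source ties that number to a batch, and whether it pairs the libraries could not be settled. Of the fits given next, those without an sgZNF507 replicate rest on the lone sgZNF507 library left. It shows no spread of its group, so their calls are not taken as a result. In them MT-RNR1 differed from EV by -4.99 without replicate 1 and by -0.76 without replicate 2. Leaving out 1 library gave 0 to 5 calls: 1 (MT-ND2) without sgZNF146 replicate 2, 5 (MT-ND3, MT-ND4L and the rRNA pair with MT-TV) without sgZNF507 replicate 1, and 4 (MT-ND6 and the rRNA pair with MT-TV) without sgZNF507 replicate 2. The share of all genes called in these fits was 0.152%, 0.109% and 0.193%.

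**Figure D2:**
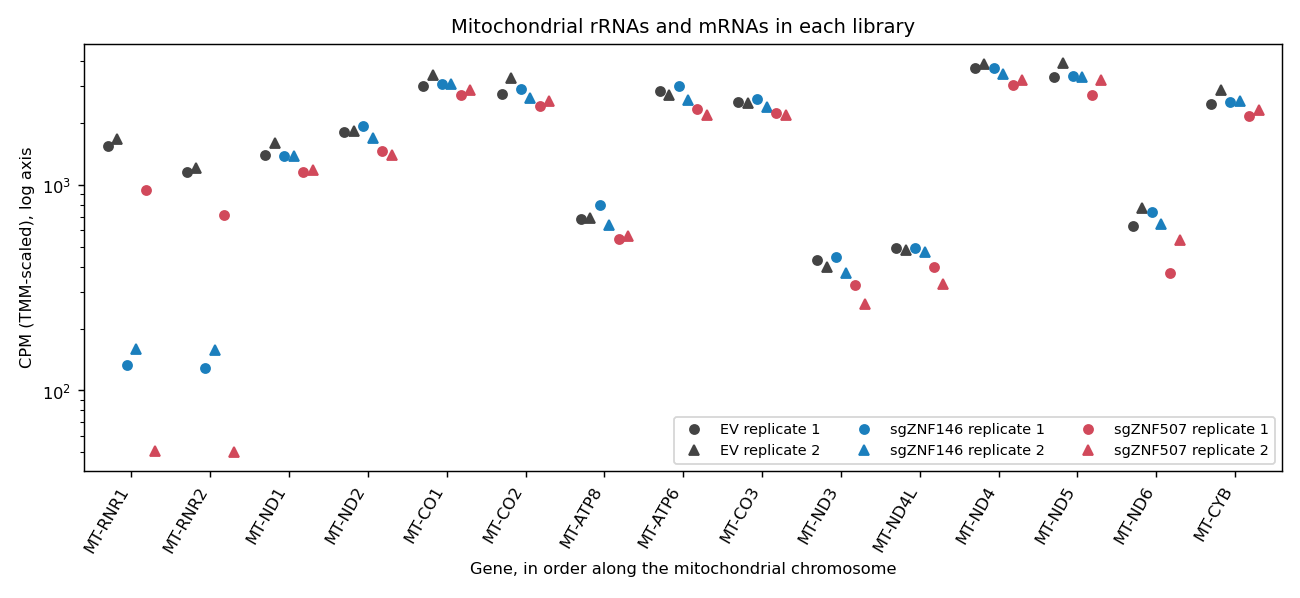
CPM on a log axis of the 2 rRNAs and 13 mRNAs in each of the 6 libraries, in order along the chromosome. Circles are replicate 1 and triangles replicate 2, and both red sgZNF507 points lie below the other 4 for every mRNA, while the rRNAs spread from 50.3 to 1671 CPM.

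Complex I, the NADH dehydrogenase through which most electrons enter the chain, takes 7 of the mitochondrial proteins. Its mRNAs summed to 11788 and 12816 CPM in EV, 12014 and 11296 in sgZNF146, and 9500 and 10134 in sgZNF507, a log2 difference of -0.33 between sgZNF507 and EV. MT-ND1, a membrane subunit, had 1395 and 1589 CPM in EV, 1379 and 1376 in sgZNF146, and 1153 and 1182 in sgZNF507. Its fold change for sgZNF507 against EV was -0.35 (SE 0.07, edgeR adjusted p = 0.101). It was also the sole mRNA for which both sgZNF146 libraries lay below both EV libraries, by -0.11 (SE 0.07, edgeR adjusted p = 1.00).

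MT-ND2, which like MT-ND4 and MT-ND5 encodes a proton-pumping membrane subunit, had 1812 and 1827 CPM in EV, 1917 and 1680 in sgZNF146, and 1456 and 1386 in sgZNF507. It differed by -0.36 from EV (SE 0.07, edgeR adjusted p = 0.107). MT-ND4 had 3673 and 3871 CPM in EV, 3676 and 3431 in sgZNF146, and 3062 and 3211 in sgZNF507. MT-ND5 had 3352 and 3882 CPM in EV, 3371 and 3322 in sgZNF146, and 2732 and 3227 in sgZNF507. Between sgZNF507 and EV the values were -0.27 for MT-ND4 (SE 0.06, edgeR adjusted p = 0.342) and -0.28 for MT-ND5 (SE 0.09, edgeR adjusted p = 1.00), and in MT-ND5 the sgZNF507 replicates were farther apart than the higher of them was from the lower EV library.

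The small membrane subunits had some of the larger differences. MT-ND3 had 432 and 398 CPM in EV, 446 and 370 in sgZNF146, and 325 and 262 in sgZNF507, or -0.50 against EV (SE 0.10, edgeR adjusted p = 0.145). MT-ND4L had 495 and 481 CPM in EV, 490 and 473 in sgZNF146, and 398 and 330 in sgZNF507, or -0.42 against EV (SE 0.08, edgeR adjusted p = 0.0796). For both genes sgZNF507 replicate 2 was the lowest library. Without sgZNF507 replicate 1 the values, which rest on that lone library, were -0.66 for MT-ND3 and -0.56 for MT-ND4L.

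MT-CYB encodes cytochrome b, the only subunit of complex III that comes from mitochondrial DNA. It had 2473 and 2896 CPM in EV, 2524 and 2555 in sgZNF146, and 2149 and 2302 in sgZNF507. Its fitted value against EV was -0.27 (SE 0.08, edgeR adjusted p = 0.792).

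Complex IV, cytochrome c oxidase, reduces oxygen with its catalytic subunits MT-CO1 and MT-CO2, and MT-CO3 completes its core. MT-CO1 had 3002 and 3401 CPM in EV, 3099 and 3096 in sgZNF146, and 2719 and 2885 in sgZNF507. MT-CO2 had 2753 and 3309 CPM in EV, 2903 and 2633 in sgZNF146, and 2404 and 2551 in sgZNF507. MT-CO3 had 2521 and 2482 CPM in EV, 2611 and 2395 in sgZNF146, and 2222 and 2168 in sgZNF507. The differences of sgZNF507 from EV were -0.19 for MT-CO1 (SE 0.07), -0.29 for MT-CO2 (SE 0.08) and -0.19 for MT-CO3 (SE 0.06), and MT-CO1 and MT-CO3 were the mRNAs with the smallest ones. Their edgeR adjusted p were 1.00, 0.913 and 1.00. The summed complex IV mRNAs differed by -0.22 on the log2 scale.

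Complex V, the ATP synthase, takes MT-ATP6, which forms its proton channel, and MT-ATP8, a small subunit of its membrane part. MT-ATP6 had 2853 and 2738 CPM in EV, 3032 and 2583 in sgZNF146, and 2331 and 2186 in sgZNF507. MT-ATP8 had 683 and 686 CPM in EV, 799 and 637 in sgZNF146, and 543 and 563 in sgZNF507. The value for sgZNF507 against EV was -0.31 for both genes (SE 0.08 for MT-ATP6 and 0.09 for MT-ATP8, edgeR adjusted p = 0.479 and 0.875). The sum of complex V differed by -0.31 and lay between those of complex I and complex III. Complex I took 45.2 and 45.2% of the mRNA counts in EV, 44.5 and 44.8% in sgZNF146, and 43.4 and 44.5% in sgZNF507, and complex IV 31.7 and 32.5%, 31.9 and 32.2%, and 33.6 and 33.4%. The mRNAs thus kept nearly the same makeup by complex, with a slightly smaller share for complex I and a larger one for complex IV in both sgZNF507 libraries than in both libraries of either other group.

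**Figure D3:**
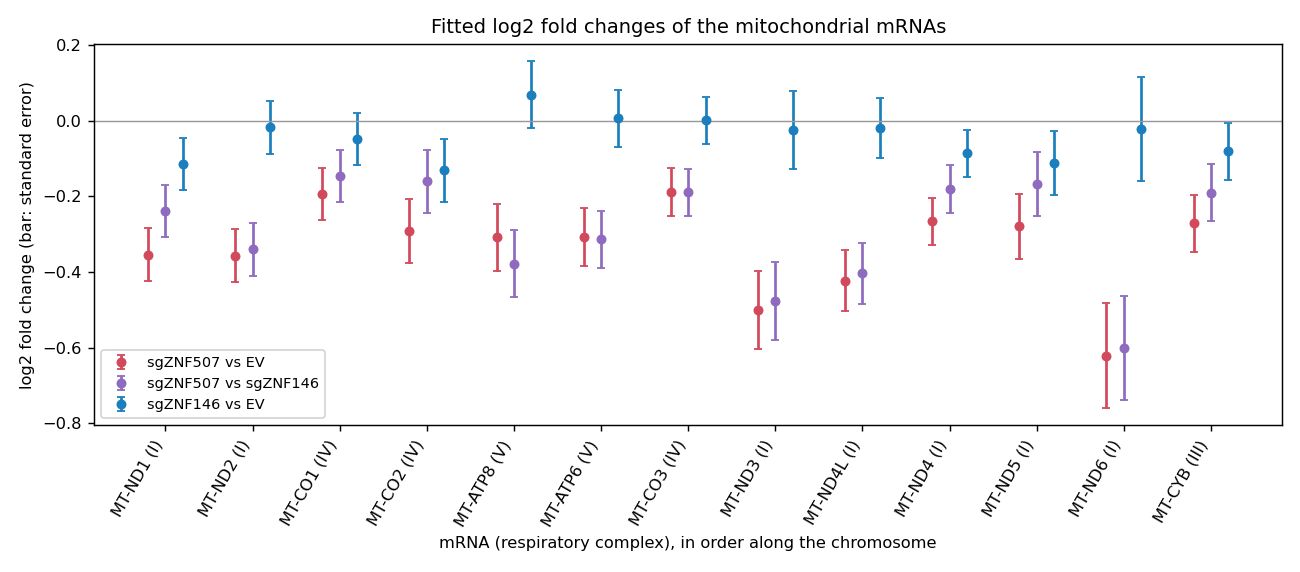
Fitted log2 fold change of each mRNA with its standard error as a bar, for 3 comparisons between groups, in order along the chromosome and with the respiratory complex in brackets. The values of sgZNF507 against EV (red) and against sgZNF146 (purple) are all below 0, from -0.62 to -0.14, and those of sgZNF146 against EV (blue) lie between -0.13 and 0.07.

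Between sgZNF146 and EV the mRNAs had a median log2 fold change of -0.02 and a range of -0.13 (MT-CO2) to 0.07 (MT-ATP8), with standard errors of 0.06 to 0.14. In 12 of 13 the groups overlapped, 0 of 13 passed edgeR's adjusted test or an unadjusted p under 0.05, and 14.6% of all genes lay lower in both sgZNF146 libraries against 1 of the 13 mRNAs, MT-ND1. The sgZNF146 sums over complexes differed from EV by -0.08 (complex I), -0.08 (complex III), -0.06 (complex IV) and 0.02 (complex V).

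The comparisons of either targeted group with EV share both EV libraries. Between sgZNF507 and sgZNF146, a comparison that uses no EV library, all 13 mRNAs were again lower in both sgZNF507 libraries, where 16.5% of all genes were, and 10 of 13 had an unadjusted p under 0.05 against 4.03% of all genes. edgeR's adjusted test called 0 of the 33 mitochondrial genes and 0.173% of all genes, while 16 of 33 had an unadjusted p under 0.05. The median was -0.24 and the range -0.60 to -0.14. The smallest adjusted p was that of MT-ND4L, with -0.40 (SE 0.08, edgeR adjusted p = 0.118), followed by MT-ND2 with -0.34 (SE 0.07, edgeR adjusted p = 0.140). DESeq2 called 3 (MT-ATP8, MT-ND2 and MT-ND4L) on 6 libraries and 2 on the 4 compared, with 0.192% and 0.24% of all genes. On those 4 edgeR called 0 (0.14%). Without the filter edgeR called 11 (0.304%), of which 9 were lower and MT-RNR1 and MT-RNR2 higher. The unfiltered fit again gave MT-RNR1 a standard error of 0.06, against 0.76 in the main fit, so these 11 calls are not taken as a result. With the replicate number as a block, edgeR called 8 (0.891% of all genes) and DESeq2 called 7 (0.43%), all lower. Without sgZNF146 replicate 2, edgeR called MT-ATP8, with -0.53 (adjusted p = 0.0188) and 0.1% of all genes. It called 5 without sgZNF507 replicate 1 (0.114% of all genes) and 3 without sgZNF507 replicate 2 (0.162%). Each of these fits without a library left a lone library in a group compared, so their calls are not taken as a result. MT-RNR1 was lower without sgZNF507 replicate 1 (-1.52) and higher without sgZNF507 replicate 2 (2.71). MT-RNR2 turned likewise, from -1.51 to 2.32. The sgZNF507 libraries are the same in this comparison and in that with EV, so the values stand side by side and are not separate evidence.

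MT-ND6 encodes a membrane subunit of complex I and is the only mRNA gene on the minus strand, where it lies with 8 of the 22 tRNA genes, 9 genes in all against 28 on the plus strand. It abuts MT-ND5, which is read the other way, so that these genes meet at their ends. The junction at chrM:14134-14163 is printed on the plus strand, with the MT-ND6 side in capitals.
MT-ND5/MT-ND6: ctcctaatcacataaCCTATTCCCCCGAGC

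MT-ND6 had 630 and 767 CPM in EV, 733 and 644 in sgZNF146, and 372 and 536 in sgZNF507. It had the largest difference of the 13 mRNAs between sgZNF507 and EV, -0.62 (SE 0.14, edgeR adjusted p = 0.237), and also the widest gap between replicates, a ratio of 1.44 in sgZNF507 and 1.22 in EV. Its counts per 100 counts of the 12 plus-strand mRNAs were 2.47 and 2.78 in EV, 2.79 and 2.62 in sgZNF146, and 1.73 and 2.41 in sgZNF507. Both sgZNF507 libraries were the lowest, but replicate 2 lay close to EV replicate 1. The log2 difference from EV was -0.35 with both libraries, -0.60 without sgZNF507 replicate 2 and -0.13 without sgZNF507 replicate 1. Without sgZNF507 replicate 2 the fitted fold change of MT-ND6 was -0.90, a value that rests on the lone replicate 1, the lower of these replicates. The counting options for strand are not given in the sources used here. Reads of MT-ND6 and of an RNA running through it on the other strand cannot be told apart in that case, though the libraries were strand-specific.

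Some neighbours share bases, and reads that lie in shared bases could belong to either. Of the 36 neighbouring pairs, 20 abut with no base between them and 5 overlap. The widest overlap is that of MT-ATP8 and MT-ATP6, 46 bases (capitals, at chrM:8515-8584 on the plus strand), and the next that of MT-ND4L and MT-ND4, 7 bases (capitals, at chrM:10748-10778 on the plus strand). Both pairs are kept as a single mRNA with overlapping reading frames.
MT-ATP8/MT-ATP6: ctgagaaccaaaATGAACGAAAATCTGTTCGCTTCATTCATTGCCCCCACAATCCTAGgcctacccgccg
MT-ND4L/MT-ND4: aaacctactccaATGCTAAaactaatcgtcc

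Counts of MT-ATP8 per 100 of MT-ATP6 were 24.0 and 25.05 in EV, 26.4 and 24.7 in sgZNF146, and 23.3 and 25.7 in sgZNF507, with all groups overlapping. Counts of MT-ND4L per 100 of MT-ND4 were 13.5 and 12.4 in EV, 13.3 and 13.8 in sgZNF146, and 12.99 and 10.3 in sgZNF507. In 5 of 6 libraries this ratio lay between 12.4 and 13.8, and sgZNF507 replicate 2 was the low one.

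Levels of different genes were compared per length, as CPM per kilobase of the annotated gene. In EV the mean level ran in the order MT-CO2 (4431), MT-ATP6 (4105), MT-ATP8 (3307), MT-CO3 (3191), MT-ND4 (2737), MT-CYB (2353), MT-CO1 (2076), MT-ND5 (1996), MT-ND2 (1746), MT-ND4L (1643), MT-ND1 (1561), MT-ND6 (1330) and MT-ND3 (1201). The EV libraries of neighbours in this order overlapped for MT-CO2 and MT-ATP6, MT-CYB and MT-CO1, MT-CO1 and MT-ND5, MT-ND4L and MT-ND1, MT-ND1 and MT-ND6, and MT-ND6 and MT-ND3. The complex IV and V mRNAs held the first 4 places, and MT-ND4 was the highest of complex I. Genes kept on a single mRNA still differ on this scale, MT-ATP6 from MT-ATP8 and MT-ND4 from MT-ND4L. The order therefore ranks read density over each annotated gene, not amounts of mRNA. The order was the same in sgZNF146 but for an exchange of MT-CO2 and MT-ATP6, and the same in sgZNF507 but for an exchange of MT-ATP8 and MT-CO3. On the same scale MT-RNR1 had a mean of 1687 in EV and MT-RNR2 one of 756, below most or all of the mRNAs. The libraries were ribosome-depleted and rRNA reads were removed before mapping. These counts therefore do not show how abundant the rRNAs were beside the mRNAs.

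The tRNA genes, 59 to 75 bases long, gave few counts, from 962 to 1647 summed over the 22 in a library. That sets a wide counting error for each. Reads on so short a gene can also come from a precursor or a neighbouring RNA that runs through it. Counts on tRNA genes are therefore not shown to be levels of mature tRNA, and the source of these reads was not tested. The largest mean counts were those of MT-TL1, MT-TP, MT-TE, MT-TS1 and MT-TF. MT-TP, the proline tRNA gene on the minus strand, had 8.43 and 7.33 CPM in EV, 8.07 and 8.73 in sgZNF146, and 7.02 and 8.90 in sgZNF507, and spanned 1.27-fold over the 6 libraries. Its log2 fold change of 0.02 for sgZNF507 against EV (SE 0.15, edgeR adjusted p = 1.00) turned to -0.15 without sgZNF507 replicate 2 and to -0.08 without EV replicate 2. MT-TE, for glutamate and on the minus strand, had 177 and 220 counts in EV, 206 and 204 in sgZNF146, and 126 and 183 in sgZNF507, or -0.35 for sgZNF507 against EV (SE 0.14, edgeR adjusted p = 1.00). MT-TS1, for serine and on the minus strand, had 125 and 133 counts in EV, 142 and 118 in sgZNF146, and 62 and 122 in sgZNF507, or -0.49 (SE 0.21, edgeR adjusted p = 1.00), with sgZNF507 replicate 1 set apart from the rest.

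Over the 18 tRNA genes tested, 13 had a log2 fold change below 0 and 5 above between sgZNF507 and EV, with a median of -0.31. Both sgZNF507 libraries lay below both EV libraries in 8, against 15.3% of all genes, above them in 1, MT-TN, against 14% of all genes, and overlapped in 9. For sgZNF146 against EV the median was 0.08, with 6 below 0 and 12 above, and the libraries of both groups overlapped in 14. Of the 4 genes left out by the filter, MT-TD had 3 to 8 counts, MT-TL2 3 to 8, MT-TG 1 to 10 and MT-TR 0 to 4, too few for a comparison at this depth. The other 12 tRNA genes tested, beyond the 5 largest and MT-TV, had mean counts of 7.67 (MT-TK) to 75.3 (MT-TQ).

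**Figure D4:**
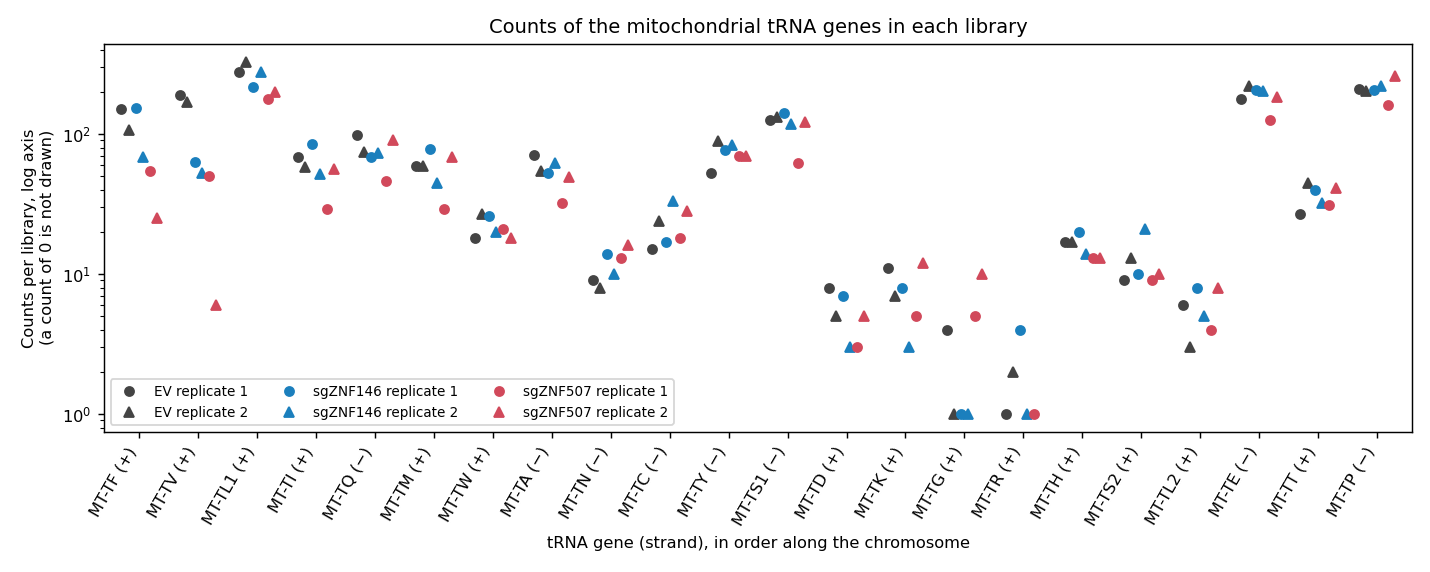
Counts of the 22 tRNA genes in each library on a log axis, in order along the chromosome with the strand in brackets (circles for replicate 1, triangles for replicate 2). MT-TV ranges from 189 and 169 counts in EV to 6 in sgZNF507 replicate 2, while MT-TP stays between 162 and 258, and the count of 0 for MT-TR in sgZNF507 replicate 2 is not drawn.

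By strand, the plus-strand tRNA genes summed to 33.9 and 30.4 CPM in EV, 28.3 and 23.7 in sgZNF146, and 18.8 and 16.3 in sgZNF507. The minus-strand tRNA genes summed to 30.5 and 29.1, 30.8 and 31.9, and 22.9 and 28.2. The minus strand thus took 47.3 and 48.9% of tRNA counts in EV, 52.2 and 57.4% in sgZNF146, and 55.0 and 63.4% in sgZNF507, where the 4 libraries with guides lay above both EV libraries. MT-TF and MT-TV, the plus-strand genes beside MT-RNR1, carried part of this. Without them the tRNA genes summed to 50.7 and 49.5 CPM in EV, 50.6 and 50.7 in sgZNF146, and 37.2 and 43.4 in sgZNF507. The remaining 20 tRNA genes were therefore level between EV and sgZNF146 and lower in both sgZNF507 libraries, by a log2 difference of -0.32 that was close to that of the mRNAs, -0.28. As for MT-ND6, the counting options for strand are not given. Counts on minus-strand tRNA genes may thus include RNA of the plus strand, and the strand shares are shares by annotated gene.

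**Figure D5:**
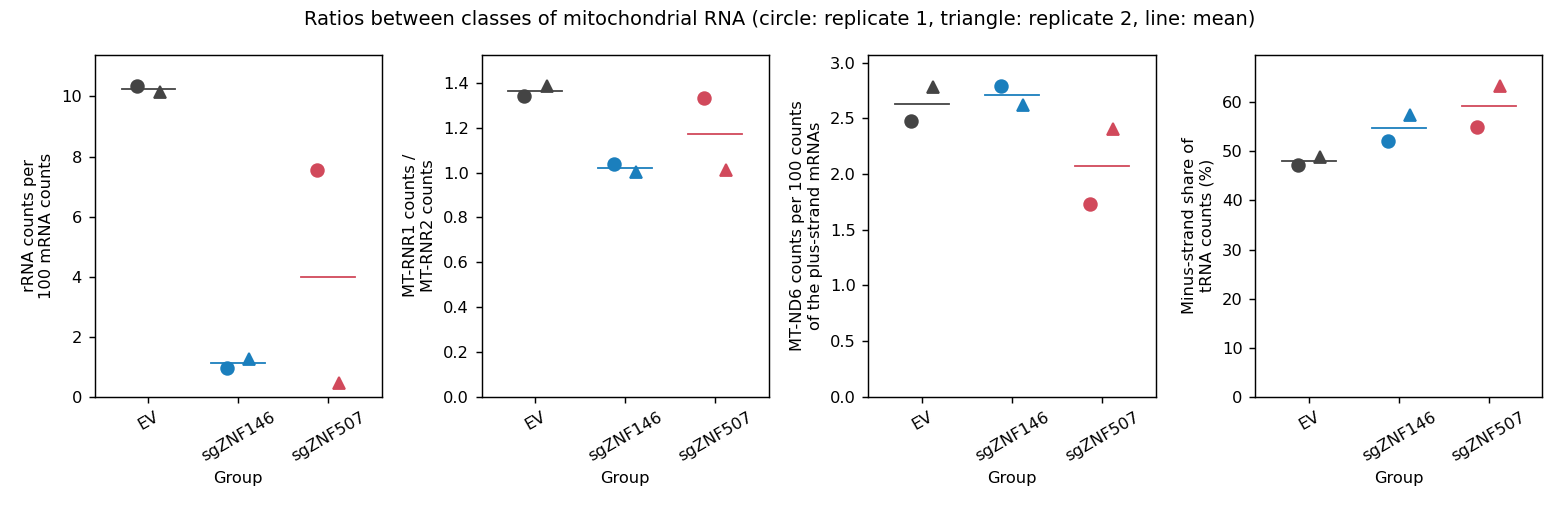
Ratios within each library, with the mean of a group as a line: rRNA counts per 100 mRNA counts, MT-RNR1 over MT-RNR2 counts, MT-ND6 counts per 100 counts of the plus-strand mRNAs, and the percentage of tRNA counts in genes annotated on the minus strand. The sgZNF507 replicates are far apart in the first panel, at 7.55 and 0.444, and both sgZNF146 libraries lie near 1.

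The nuclear genes that transcribe, process and stabilize mitochondrial RNA did not pass the test in any comparison. Of 71 listed genes of mitochondrial DNA expression, 70 were in the table and tested, MRM1 was not analysed here, and edgeR called 0 higher and 0 lower in each comparison, with 3, 1 and 1 at an unadjusted p under 0.05 for sgZNF507 against EV, sgZNF146 against EV and sgZNF507 against sgZNF146. Over all genes tested these shares were 0.182%, 0% and 0.173% adjusted and 3.39%, 2.43% and 4.03% unadjusted, so that 0 of 70 says little about the list. Their median log2 fold changes were -0.03, -0.02 and -0.01, beside -0.00 over all genes in each comparison. For sgZNF507 against EV, POLRMT differed by 0.01 (SE 0.06), TFAM, which packages mitochondrial DNA and activates its transcription, by -0.13 (SE 0.07), the elongation factor TEFM by 0.09 (SE 0.11), and LRPPRC, which stabilizes mitochondrial mRNAs, by 0.04 (SE 0.06), each with an edgeR adjusted p of 1.00. TFAM had 2582 and 2779 counts in EV, 2670 and 2574 in sgZNF146, and 2019 and 2861 in sgZNF507.

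The partner subunits made from nuclear genes were read in the same way. All 79 listed nuclear subunits of complexes I to V, which include the wholly nuclear complex II, were tested, and edgeR called 0 higher and 0 lower in each comparison, with 2, 1 and 1 at an unadjusted p under 0.05, beside the same shares of 3.39%, 2.43% and 4.03% over all genes. With so few genes called in all, 0 of 79 says little about the subunits. The medians were -0.02, -0.01 and -0.00. For sgZNF507 against EV, the 37 nuclear subunits of complex I had a median of -0.01 beside the -0.33 of the summed mitochondrial mRNAs of that complex, and the 11 of complex IV a median of 0.04 beside -0.22. That difference between nuclear and mitochondrial subunits was not tested.

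Copies of mitochondrial genes lie in the nuclear genome and can take reads from them. Of 394 listed copies, 102 had counts, and they summed to 233 and 235 CPM in EV, 241 and 199 in sgZNF146, and 184 and 191 in sgZNF507. The copy with most counts, MTCO3P12 on chromosome 1 (chr1:569756-570302), matched MT-CO3 in 98.2% of 547 bases, with 10 differences. MTND6P4 on chromosome 5 (chr5:134259813-134260334) matched MT-ND6 in 95.0% of 522 bases, and MTND4P12 on the same chromosome (chr5:134262350-134263726) matched MT-ND4 in 95.7% of 1377 bases. The fold changes of these 3 between sgZNF507 and EV were -0.31 (SE 0.10), -0.40 (SE 0.18) and -0.42 (SE 0.10), with edgeR adjusted p of 1.00, 1.00 and 0.353. MTND6P4 had 548 and 658 counts in EV, 648 and 626 in sgZNF146, and 293 and 631 in sgZNF507, so its low library was the one that was low in MT-ND6. How reads that map to both genes were counted is not given in the sources used here, and counts of a gene and its copy are uncertain to that extent.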

How the data were processed

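RNA of HEK293 cells was sequenced in 6 libraries as strand-specific, ribosome-depleted libraries. The RNA had been treated with DNase and cleaned with RNeasy Mini kits. How much short RNA passed that cleaning is not given in the sources used here. Per the study's methods, the authors clipped adapters (Fastx), discarded rRNA reads (Bowtie), aligned what remained to hg19 (TopHat2 set to fr-firststrand, Ensembl gene models) and deposited raw counts per gene from featureCounts, without normalization or pooling; tool versions and the strand and multi-mapping options of featureCounts are not given in the sources used here. How PCR duplicates were treated is not given there either.

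Genes were named and placed with GENCODE on GRCh37, which matched 96.1% of 57773 identifiers, and sequences were read from its chromosomes, since the table gives no positions; the mitochondrial sequence used in mapping may differ from it. Groups followed the labels, and 0 columns were unassigned. Counts were filtered by filterByExpr, scaled by TMM and tested with edgeR 4.0.16 (glmQLFit, glmQLFTest, R 4.3.3) in 1 fit of 6 libraries, with Benjamini-Hochberg adjustment over 22010 genes and a threshold of 0.05 (common dispersion 0.0052, prior degrees of freedom 9.51). Standard errors derive from the F statistic. The script was tested on simulated data. DESeq2 1.42.0, other scalings and filters, a replicate block and leaving out each library were alternatives. Sums and ratios are means of 2 libraries. Values were given for the mRNAs, the rRNAs, the 5 tRNA genes with the largest mean count, any listed gene past the threshold, POLRMT, TFAM, TEFM, LRPPRC and the 3 nuclear copies with most counts. The members and lists were chosen with earlier results of these data known. Figures used matplotlib 3.10.9.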

Additional observations from a re-analysis of the deposited data

Results flagged for a closer look

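With 2 libraries a group, no group was large enough for a check of single outlying libraries. For 3 values every sgZNF146 library lay on one side of EV and every sgZNF507 library on the other, and these differences between groups are listed as values without a cause. MT-TE was higher in both sgZNF146 libraries and lower in both sgZNF507 libraries than in EV, with 7.10 and 7.95 CPM in EV, 8.11 and 8.10 in sgZNF146, and 5.46 and 6.31 in sgZNF507, and the log2 fold change of sgZNF507 against sgZNF146 was -0.46 (SE 0.14, edgeR adjusted p = 0.931). The summed minus-strand tRNA genes followed the same order, with a log2 difference of -0.29 between sgZNF507 and sgZNF146, in which MT-TE is included. MT-TV counts per 1000 rRNA counts were higher in sgZNF146 and lower in sgZNF507 than in EV, a log2 difference of -2.27 between the targeted groups, and rest on 6 MT-TV counts in sgZNF507 replicate 2. The last of these differences and the sum of tRNA genes were not tested beyond the order of the libraries, since an exact permutation test of 2 against 2 cannot go below p = 0.333.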

How the results depend on the processing

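Calls of mitochondrial genes depended on the model, and the scalings alone (DESeq2 size factors, upper quartile, nuclear genes as library size) and a minimum of 10 counts in every library left them at 0. Every fit that leaves out 1 library, given below, holds a group with a lone library. Where that group was compared, the calls are not taken as a result. Against EV, sgZNF507 had 17 calls without the filter, 3 with DESeq2 on 6 libraries and 7 with DESeq2 on the 4 compared; sgZNF146 had 3 without the filter and 3 with either tool on 4 libraries; and sgZNF507 against sgZNF146 had 11, 3 and 2. Leaving out 1 library gave 0 to 5, 0 to 3 and 0 to 5 calls in these comparisons. The replicate number entered as a block gave 16, 3 and 8 calls in edgeR and 9, 0 and 7 in DESeq2, where 0.55%, 0.15% and 0.891% (edgeR) and 0.335%, 0% and 0.43% (DESeq2) of all genes passed, and 1 nuclear respiratory subunit for sgZNF507 against sgZNF146. No source says that a number marks a shared batch. The deviations of replicate 1 from the group means correlated at 0.14 to 0.18 between groups, but with 2 numbers those of replicate 2 mirror them, so whether the numbers pair the libraries could not be settled.

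Without 1 library, the median mRNA fold change ranged from -0.38 to -0.26 (sgZNF507 against EV), from -0.12 to 0.00458 (sgZNF146 against EV) and from -0.26 to -0.19 (sgZNF507 against sgZNF146), the summed mRNA of sgZNF146 against EV from -0.12 to 0.000823, the summed rRNA from -4.78 to -0.76 (sgZNF507 against EV) and from -1.51 to 2.52 (sgZNF507 against sgZNF146), and the MT-ND6 ratio from -0.60 to -0.13, from -0.0399 to 0.13 and from -0.64 to -0.17. For sgZNF146 against EV the direction of single genes turned where it was near 0: MT-CO3 was 0.00102 and became -3.67e-05 with nuclear genes as library size, -0.00186 without the filter and -6.86e-05 with the replicate block. Without 1 library the ranges were -0.0632 to 0.0609 for MT-CO3, -0.12 to 0.0741 for MT-ND2, -0.14 to 0.0398 for MT-CO1, -0.26 to 0.00251 for MT-CO2, -0.10 to 0.22 for MT-ATP8, -0.11 to 0.12 for MT-ATP6, -0.17 to 0.10 for MT-ND3, -0.0456 to 0.00458 for MT-ND4L, -0.16 to 0.12 for MT-ND6, -0.19 to 0.0325 for MT-CYB, -0.00982 to 0.19 for MT-TP, -0.0677 to 0.19 for MT-TS1 and -0.86 to 0.28 for MT-TF. MT-TP ranged from -0.15 to 0.18 (sgZNF507 against EV) and from -0.25 to 0.0810 (sgZNF507 against sgZNF146), where MT-RNR1 ranged from -1.52 to 2.71 and MT-RNR2 from -1.51 to 2.32. The cause was not tested. With 2 libraries a group and few tRNA counts, small differences were not detectable at this depth.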
